A study of Arabidopsis thaliana with 16 samples.

Results

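The transcripts described here are the 41 with the brightest probes in wild type among 692 probes with a single gene in the platform annotation. A transcript was taken when the mean deposited intensity of its probe over WT replicates 1 to 8 was 2 or more on a scale from 0 to 100. Of 49 single-gene probes that met this minimum, 8 that the rule for choosing members names as exceptions were left out. The minimum was also met by 42 probes with several genes and 132 with none listed, which cannot be assigned to 1 transcript. The WT intensities chose the members, so WT levels are given as a description, and the same WT values stand in every difference from psag. A minimum set on WT favours members that look lower in psag.

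The study compared Arabidopsis thaliana of ecotype Columbia 0 that was psag mutant, lacking the photosystem I protein PSI-G, or wild type (WT). Total RNA was measured on 8 arrays of psag and 8 of WT, each with 3439 probes. Tissue, plant age, light and dye are missing from the labels, as is any word on whether replicates were separate plants, so p-values measure the spread between these samples, which may be technical. They give neither the mutant allele nor the number of mutant lines. No probe of its own was named for PSAG, so the targeted transcript could not be checked, and of 13 tissue marker loci 0 had a probe of their own.

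Photosystem I uses light to pass electrons from plastocyanin to ferredoxin in the thylakoid membrane. PSI-G is a small membrane subunit at the edge of its core, near the attachment of the light-harvesting antenna. Most proteins of the chloroplast, including most subunits of the photosystems and the factors that process plastid RNA, are encoded in the nucleus and imported, so their transcripts are part of nuclear gene expression. Of the 41 members, 8 have a symbol in the gene table and 33 a locus code alone, and for these the table gives no function. Where a role is stated for a locus code it is a general description of the protein class, given as background and not taken from these data, and 12 loci are left without one. The grouping by role was made after the names were known.

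Intensities of neighbouring replicates (1 and 2, 3 and 4, 5 and 6, 7 and 8) were close to each other for these transcripts. The larger of 2 neighbouring intensities was a median of 1.08 times the smaller in psag and 1.06 times in WT. Arrays of a genotype that were not neighbours differed by a median of 1.22 times in psag, with replicates 7 and 8 left out, and by 1.19 times in WT. Over all probes, deviations of neighbours from their genotype mean correlated at 0.450 to 0.726 in psag. In WT the correlations were 0.316, -0.119, 0.0862 and 0.541 from the first pair to the last, so the resemblance was uneven. Each pair of neighbours was averaged, as in earlier processing of these data, which left 4 measurements per genotype for the tests. Differences are psag minus WT on the scale of log2(intensity + 0.0407) after quantile normalization, and a transcript was called changed at an adjusted p under 0.05 (limma, Benjamini-Hochberg over 3438 probes). Psag replicates 7 and 8 stood apart: their correlation with the other 7 measurements was 0.819 to 0.852, against 0.934 to 0.980 among those 7. Results are therefore given with and without that pair.

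The 41 probes were 1.19% of the array and carried 12.02% to 12.51% of the summed intensity in psag replicates 1 to 6, 7.59% and 8.35% in psag replicates 7 and 8, and 12.3% to 13.1% in WT. None of these probes was at the ceiling of 100 or listed at 0 on any array. Their single-array values ran from 0.238 to 89.5. In WT, 9 had a mean of 10 or more, 16 a mean from 3 to 10 and 16 a mean from 2 to 3. The brightness of a probe depends on the probe as well as the transcript, so this is an order of signals and not of transcript amounts.

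**Figure D1:**
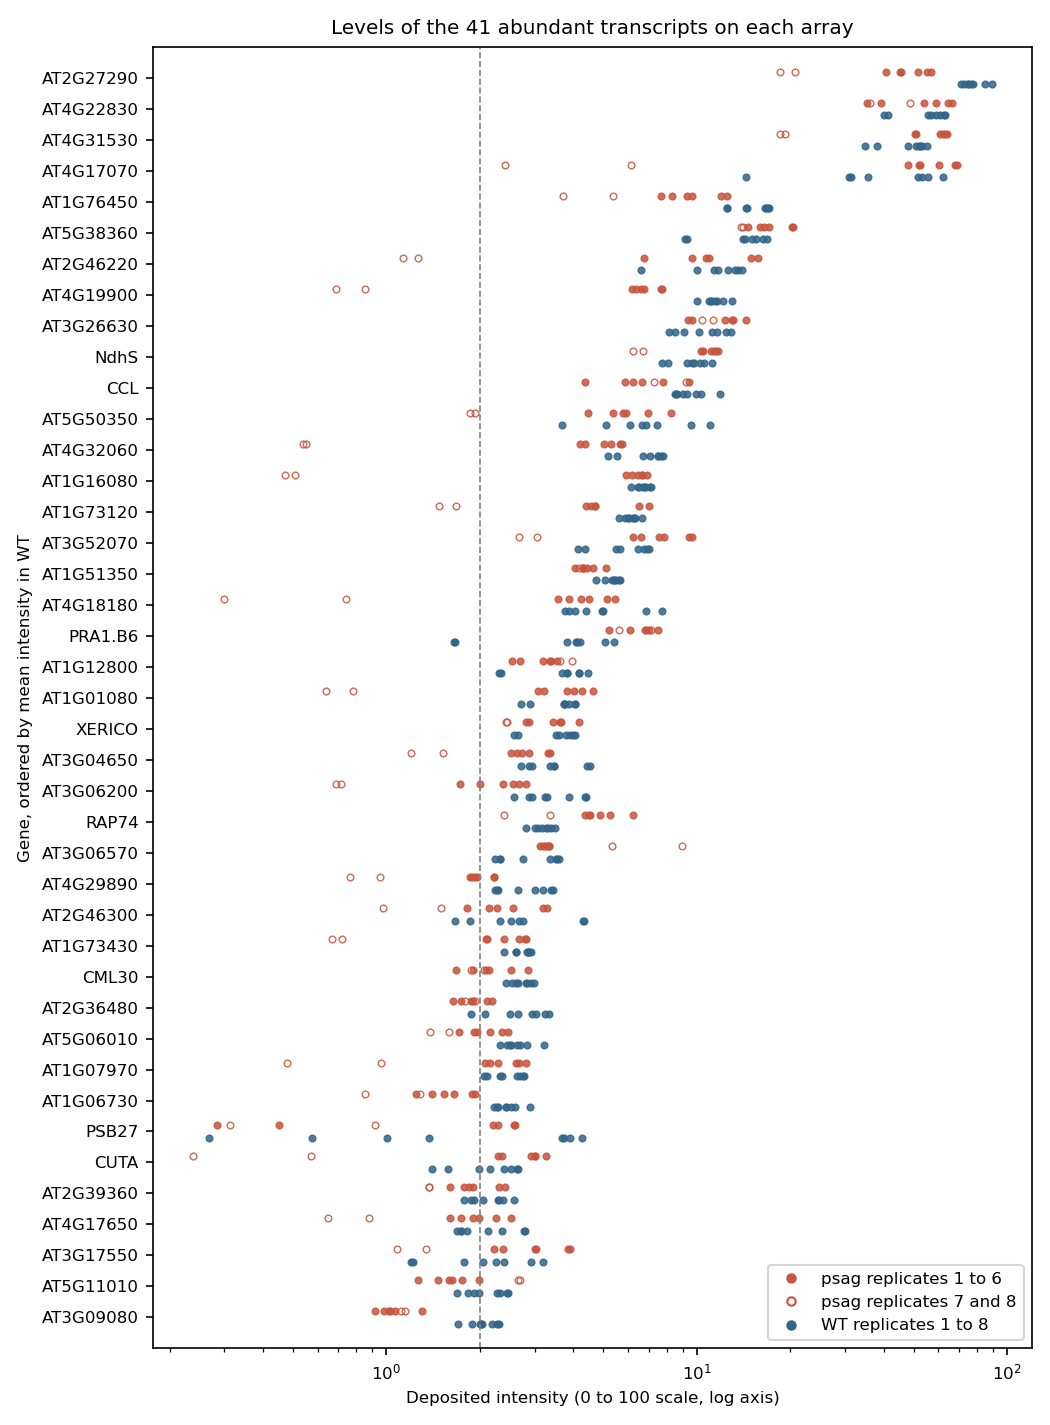
Deposited intensity (log axis) of the 41 transcripts on every array, ordered from the highest WT mean, with psag (upper row of each gene) above WT (lower row). Open circles are psag replicates 7 and 8, which lie at the low end for many genes, and the dashed line is the minimum of 2 applied to the WT mean.

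Here and in the role groups below, a lower or higher mean is that of the normalized log2 measurements, not of deposited intensities. Across the 41 transcripts, 32 had a lower and 9 a higher mean in psag, with a median difference of -0.36 on the log2 scale. It was -0.48 with median centring and -0.45 without normalization, where 34 and 33 were lower. In bulk RNA, fewer cells of a type and less RNA per cell cannot be told apart. A difference below 0 was seen for 49.2% of all 3438 probes, whose median was at 0, and at 0.015 without normalization. Among other bright probes chosen by the same WT minimum, 28 of 42 with several genes and 78 of 132 with no listed gene were lower in psag, with medians of -0.17 and -0.21. Across the whole array 11 probes, or 0.320%, passed the adjusted threshold. Among the 41 members, 1 passed, AT1G06730, and it was lower in psag, where 0.0582% of all probes passed in that direction. At an unadjusted p under 0.05 (limma) there were 12 members, or 29.3%, against 12.7% of all probes. Among the other bright probes it was 31.0% of those with several genes and 22.0% of those with no listed gene. The 4 psag measurements lay entirely below the 4 WT measurements for 6 members (14.6%) and entirely above for 2 (4.88%). The shares over all probes were 4.30% and 5.73%. As the WT values chose the members, these counts are a description and nothing is read from them about abundant transcripts as a class.

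The size of the shift varied with how members were chosen and with psag replicates 7 and 8. Without that pair the median difference of the members was -0.16, with 28 lower and 13 higher, and the share of all probes below 0 was 56.5%. The measurements then lay entirely below WT for 7 members (17.1%) and entirely above for 5 (12.2%), where the shares over all probes were 7.65% and 9.48%. An unadjusted p under 0.05 (limma) was found for 14 members, or 34.1%, against 18.2% of all probes. It was found for 35.7% of bright probes with several genes and 31.1% of those with no listed gene. When the same minimum was applied to the mean of all 16 arrays, 38 single-gene probes were taken and their median was -0.27. Applied to the mean of the psag arrays it took 39, with a median of -0.049 and 22 of them lower in psag. Of the 41 members, 31 also had a psag mean of 2 or more and 10 did not, and 8 other single-gene probes reached 2 in psag but not in WT.

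**Figure D2:**
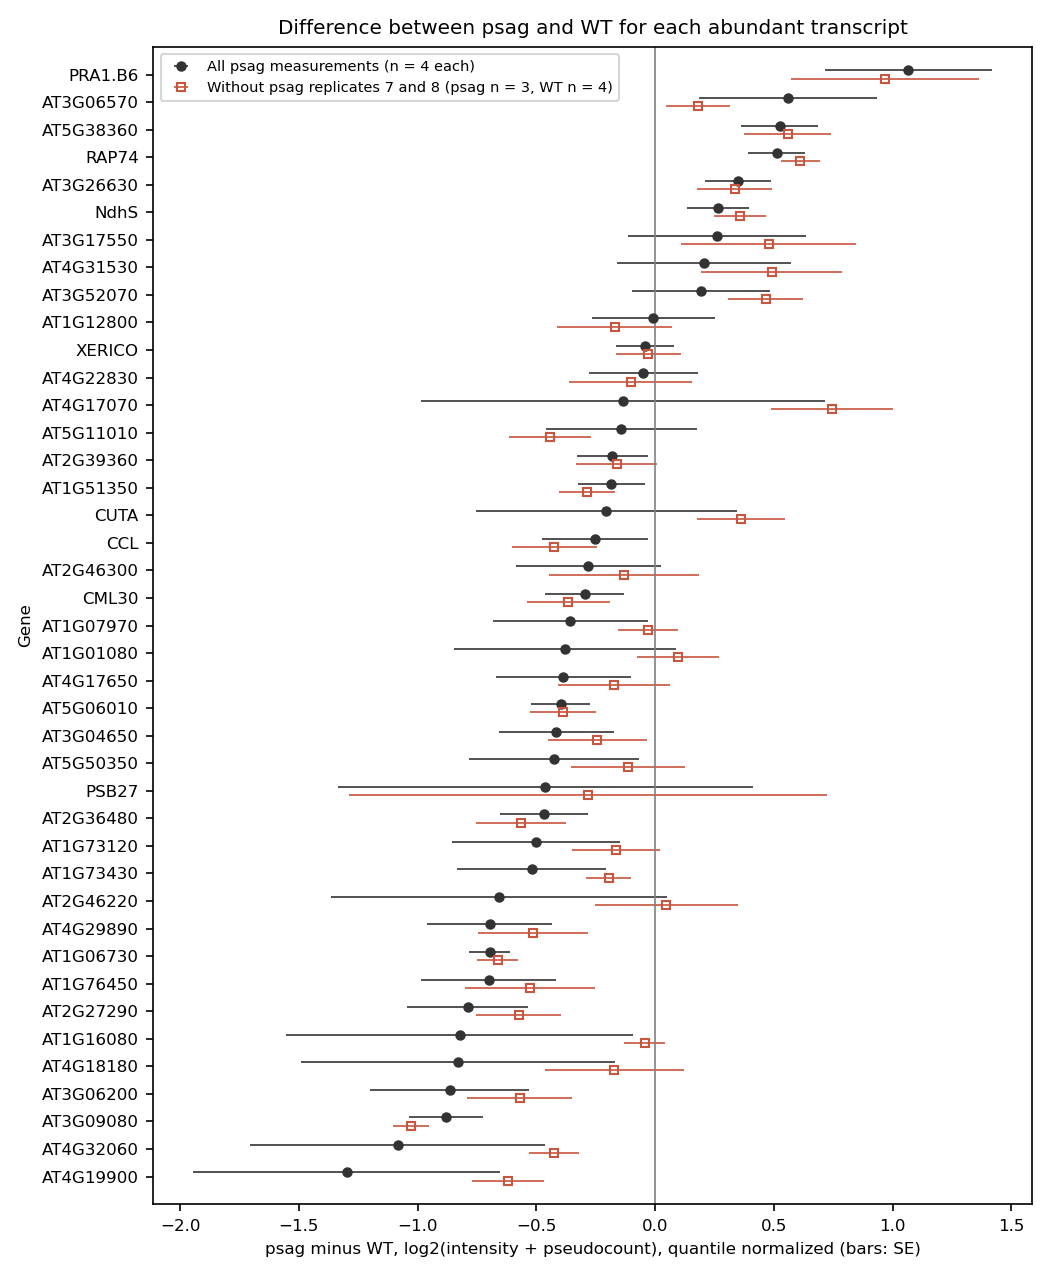
Difference psag minus WT on the log2 scale (bars, SE) for each of the 41 transcripts, with all measurements (filled circles, n = 4 each) and without psag replicates 7 and 8 (open squares, psag n = 3, WT n = 4). PRA1.B6 was at 1.07 and AT4G19900 at -1.30 with all measurements, and AT4G17070, AT4G18180 and AT1G16080 were closer to 0 or above it without the pair.

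Enzymes of metabolism and protein modification formed the largest group with a stated role, with 10 loci, of which 7 had a lower and 3 a higher mean in psag. The 1 member past the threshold belongs here. AT1G06730, a locus for a sugar kinase of the pfkB family, had intensities from 0.852 to 1.93 with a median of 1.47 on the psag arrays, against 2.22 to 2.90 with a median of 2.43 on the WT arrays. Every psag array was below every WT array. Its log2 level was 0.58 ± 0.15 in psag and 1.27 ± 0.06 in WT (SD, n = 4 each), so it fell, with a difference of -0.70 and a 1.62-fold higher level in WT (limma, adjusted p = 0.0408). Without psag replicates 7 and 8 the difference was -0.66 (limma, adjusted p = 0.0283). The call was lost with median centring (limma, adjusted p = 0.268), without normalization (adjusted p = 0.192), without the dimmest 25% of probes (adjusted p = 0.167), without probes listed at 0 on all arrays (adjusted p = 0.145) and with limma-trend (adjusted p = 0.0553). It was also lost when psag replicate 7 or 8, WT replicate 1 or 4, the psag pair 1 and 2 or 5 and 6, or any WT pair was left out, with adjusted p-values of 0.0514 to 0.143 (limma). With averaged pairs and the replicate number as a block the call was lost as well (limma, adjusted p = 0.262).

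AT3G06200, a locus for a guanylate kinase, which converts GMP to GDP, had 0.688 to 2.82 with a median of 2.19 in psag, against 2.57 to 4.38 with a median of 3.26 in WT. The psag arrays overlapped WT at single arrays, although the averaged measurements did not. Its difference of -0.87 ± 0.33 (SE) did not pass (limma, adjusted p = 0.349), and leaving out psag replicates 7 and 8 gave -0.57. AT4G19900, a locus of the glycosyltransferase class, had 0.686 to 7.76 with a median of 6.47 in psag, against 10.04 to 12.98 with a median of 11.3 in WT, and no psag array reached the WT range. The 2 lowest psag values, 0.8501 and 0.686, were those of replicates 7 and 8, and the others were 6.17 or higher. The difference of -1.30 ± 0.65 (SE) was the most negative of the 41 and had a wide error (limma, adjusted p = 0.480). It was -0.62 ± 0.15 without that pair (limma, adjusted p = 0.114).

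Other enzyme loci showed how far a single pair of arrays moved a mean. AT4G17070, a locus of the peptidyl-prolyl isomerase class, which helps proteins fold, had 47.9 to 68.9 in psag replicates 1 to 6, but 2.40 and 6.14 in replicates 7 and 8. In WT it had 14.4 to 62.4 with a median of 43.7. WT replicates 5 to 8, at 30.8, 31.5, 14.4 and 35.7, were all lower than WT replicates 1 to 4. AT4G17070 had a mean deposited intensity of 44.7 in psag and 41.9 in WT, so its psag mean was lower on the log2 scale only. Its difference was -0.14 ± 0.85 (SE) with all measurements and 0.75 ± 0.26 without psag replicates 7 and 8, neither of which passed (limma, adjusted p = 0.993 and adjusted p = 0.212). AT4G18180, of the pectin lyase-like class of cell wall enzymes, had 3.56 to 5.44 in psag replicates 1 to 6 and 0.300 and 0.740 in replicates 7 and 8, against 3.75 to 7.74 in WT. Its difference was -0.83 with the pair and -0.17 without it.

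AT4G31530, of the NAD(P)-binding Rossmann-fold class, had 18.5 to 64.0 with a median of 56.0 in psag, against 34.9 to 55.4 with a median of 51.4 in WT. Psag replicates 7 and 8 were below all WT arrays in deposited intensity, at 18.5 and 19.3, and psag replicates 1 to 4 were above all WT arrays. After normalization and averaging, AT4G31530 had psag measurements of 4.73 to 5.95, within the WT range of 4.69 to 5.95. Its difference of 0.21 ± 0.37 (SE) changed sign with the scaling, to -0.14 with median centring and -0.11 without normalization. AT5G38360, of the alpha/beta-hydrolase class, was the enzyme locus with the most positive difference. It had 13.9 to 20.5 with a median of 16.2 in psag, against 9.19 to 16.9 with a median of 14.7 in WT, and its difference of 0.52 ± 0.16 (SE) did not pass (limma, adjusted p = 0.247). The remaining enzyme loci were AT4G29890, of the choline monooxygenase-like class, at -0.70 (limma, adjusted p = 0.347), AT3G04650, an FAD/NAD(P)-binding oxidoreductase, at -0.42, and AT3G17550, of the haloacid dehalogenase-like class, at 0.26. AT3G17550 had 1.08 to 3.91 with a median of 2.69 in psag, against 1.20 to 3.19 with a median of 2.15 in WT, and the ranges overlapped.

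**Figure D3:**
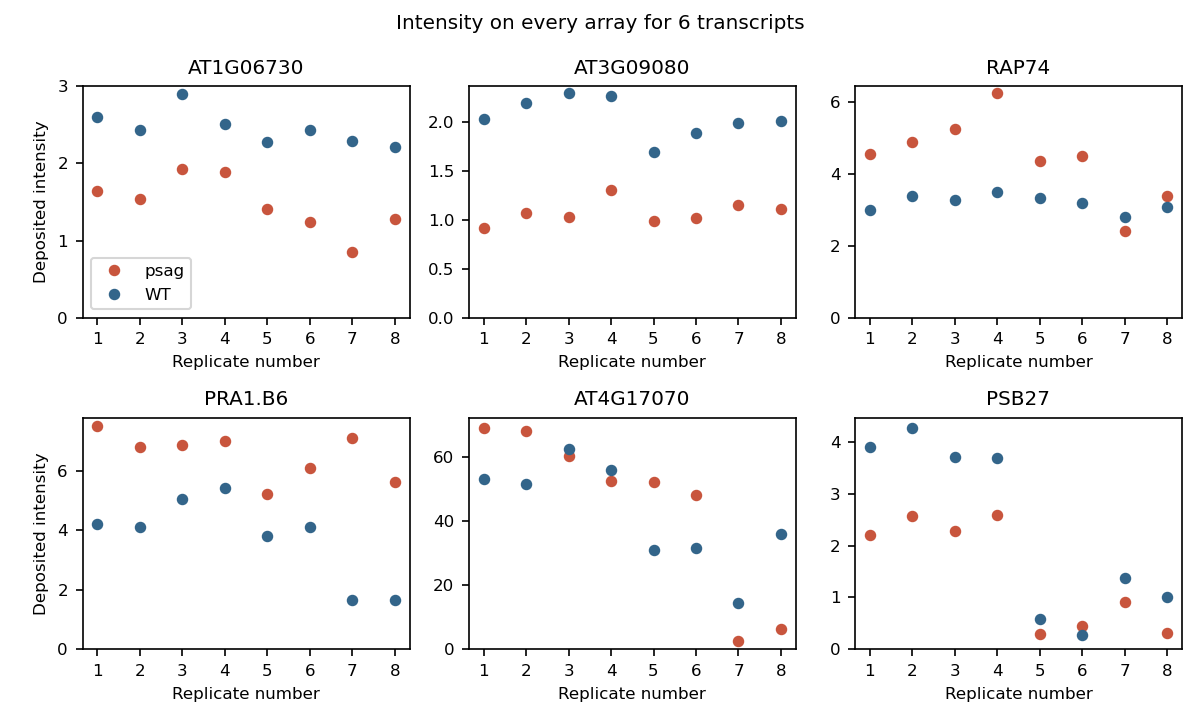
Deposited intensity on each psag and each WT array, by replicate number, for 6 transcripts. AT1G06730 and AT3G09080 were lower in psag on every array, PRA1.B6 was higher in psag at each number, AT4G17070 was low in psag replicates 7 and 8, and PSB27 was low in replicates 5 to 8 of both genotypes.

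Trafficking and protein scaffold loci held the most positive difference. PRA1.B6, a prenylated Rab acceptor protein of vesicle transport, had 5.21 to 7.49 with a median of 6.82 in psag, against 1.65 to 5.42 with a median of 4.10 in WT. WT replicates 7 and 8 were the lowest, at 1.65 and 1.66, and the highest WT array was above the lowest psag array, although the averaged measurements did not overlap. Its log2 level was 2.79 ± 0.24 in psag and 1.72 ± 0.71 in WT (SD, n = 4 each), and the 2.10-fold difference did not pass (limma, adjusted p = 0.283). AT3G09080, of the WD40 repeat class that forms protein scaffolds, had 0.922 to 1.30 with a median of 1.05 in psag, against 1.69 to 2.30 with a median of 2.02 in WT. No psag array reached the WT range, and psag replicates 7 and 8, at 1.15 and 1.11, lay among the other psag arrays in deposited intensity. After normalization and averaging that pair was the highest psag measurement, at 0.59 where the others were -0.14 to 0.12. The lowest WT measurement was 0.95. With all measurements the difference of -0.88 ± 0.16 (SE) did not pass (limma, adjusted p = 0.0855). Without psag replicates 7 and 8 it fell, with a difference of -1.03 ± 0.08 (SE) on the log2 scale between 3 psag and 4 WT measurements (limma, adjusted p = 0.00866).

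In that fit 85 probes passed, or 2.47%, with 0.873% lower and 1.60% higher in psag, and 3 members were among them: AT1G06730, AT3G09080 and RAP74. The other scaffold and trafficking loci did not pass in either fit. AT3G06570, of the kelch repeat class, had 3.13 to 3.34 in psag replicates 1 to 6 and 5.34 and 8.99 in replicates 7 and 8, against 2.23 to 3.59 in WT. It was the member with the highest ratio of that pair to the other psag arrays, 2.20, and its difference was 0.56 with the pair and 0.18 without it. AT1G73430, a locus for a subunit of the conserved oligomeric Golgi complex, was at -0.52, and AT1G51350, of the armadillo repeat class, was at -0.18.

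The 4 RNA and transcription loci had 2 higher and 2 lower means in psag. RAP74, the large subunit of the general transcription factor TFIIF, which works with RNA polymerase II at the start of transcription, had 2.40 to 6.25 with a median of 4.52 in psag, against 2.81 to 3.50 with a median of 3.22 in WT. Psag replicates 1 to 6 were at 4.35 or higher and above every WT array. Replicate 7 was at 2.40 and replicate 8 at 3.38, below the highest WT array. After normalization and averaging, RAP74 was at 1.86 in that pair, above the highest WT measurement of 1.69. Its difference with all measurements was 0.51 ± 0.12 (SE; limma, adjusted p = 0.151). That difference was 0.39 with median centring and 0.43 without normalization (limma, adjusted p = 0.583 and adjusted p = 0.54). When psag replicates 7 and 8, the 2 lowest psag arrays for RAP74, were left out, its level was 1.53-fold higher in psag (limma, adjusted p = 0.0283). AT3G26630, of the pentatricopeptide repeat class that binds organelle RNA, had 9.40 to 14.4 with a median of 11.8 in psag, against 8.11 to 12.9 with a median of 10.7 in WT. The ranges overlapped, and the difference of 0.35 ± 0.14 (SE) did not pass (limma, adjusted p = 0.356).

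AT1G01080, of the RNA recognition motif class, had 3.08 to 4.64 in psag replicates 1 to 6 and 0.638 and 0.778 in replicates 7 and 8, against 2.72 to 4.05 in WT. Its difference of -0.38 was 0.10 without that pair, so the sign differed. AT1G12800, of the S1 RNA-binding class, had 2.54 to 3.96 in psag and 2.31 to 4.47 in WT, with a difference of -0.01 ± 0.26 (SE). For this locus the psag range lay within the WT range.

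The 4 thylakoid and photosynthesis loci had 3 lower and 1 higher mean in psag, and 0 passed. NdhS, a subunit of the chloroplast NADH dehydrogenase-like complex, which works beside photosystem I in cyclic electron flow, was the higher one, although it was at -0.0028 with median centring and 0.03 without normalization. It had 6.22 to 11.7 with a median of 10.8 in psag, against 7.72 to 11.2 with a median of 9.73 in WT. Psag replicates 7 and 8 were below all WT arrays at 6.73 and 6.22. The difference was 0.26 ± 0.13 (SE) with all measurements and 0.36 ± 0.11 without that pair (limma, adjusted p = 0.474 and adjusted p = 0.176). AT1G76450, of the PsbP-domain class of thylakoid lumen proteins, had 3.69 to 12.5 with a median of 8.82 in psag, against 12.5 to 17.1 with a median of 15.6 in WT. The highest psag array was just below the lowest WT array, at 12.48 and 12.50. Averaged and normalized measurements overlapped, and the difference of -0.70 ± 0.28 (SE) did not pass (limma, adjusted p = 0.369).

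PSB27, an assembly factor of photosystem II in the thylakoid lumen, owed its WT mean to replicates 1 to 4. It had 2.21 to 2.60 in psag and 3.69 to 4.28 in WT on replicates 1 to 4, and 0.285 to 0.918 in psag and 0.267 to 1.37 in WT on replicates 5 to 8. Both genotypes were thus high and low at the same numbers, and the SD of 1.20 in psag and 1.45 in WT on the log2 scale was the widest WT spread of the 41. The difference was -0.46 ± 0.87 (SE). AT4G22830, of the YCF49-like class, named after a plastid open reading frame, had 35.3 to 66.7 with a median of 51.2 in psag, against 40.2 to 62.9 with a median of 57.8 in WT. Its ranges overlapped throughout and its difference was -0.05 ± 0.23 (SE).

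The 6 signalling and stress loci all had a lower log2 mean in psag, with a median difference of -0.23, and 0 passed. By deposited intensity CUTA had the higher mean in psag, at 2.21 against 2.16 in WT. Without psag replicates 7 and 8, 5 of the 6 were lower. AT4G32060, a locus for a calcium-binding EF-hand protein of mitochondria, had 4.20 to 5.76 in psag replicates 1 to 6 and 0.539 and 0.549 in replicates 7 and 8, against 5.19 to 7.79 in WT. The highest psag arrays overlapped the lowest WT arrays, although the averaged measurements did not, at 2.46 or lower in psag and 2.57 or higher in WT. The difference was -1.08 ± 0.62 (SE) with the pair and -0.42 ± 0.10 without it (limma, adjusted p = 0.544 and adjusted p = 0.114). CCL, a transcript known for clock-controlled stability through the day, had 4.35 to 9.46 with a median of 6.97 in psag, against 8.52 to 11.9 with a median of 9.15 in WT. Its difference of -0.25 did not pass (limma, adjusted p = 0.702), and psag replicates 7 and 8 were not low for it, at 7.28 and 9.24.

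CUTA, a chloroplast copper-binding protein, had 2.30 to 3.26 in psag replicates 1 to 6 and 0.238 and 0.570 in replicates 7 and 8, against 1.40 to 2.65 in WT. Its difference was -0.20 with that pair and 0.36 without it, so the sign differed. XERICO, a RING-type protein linked to abscisic acid and drought responses, had 2.42 to 4.16 in psag and 2.58 to 4.07 in WT, with a difference of -0.04 ± 0.12 (SE), the second smallest in size of the 41. CML30, a calmodulin-like calcium sensor, was at -0.30 with 1.67 to 2.86 in psag and 2.44 to 2.99 in WT. AT2G39360, of the receptor-like kinase class, was at -0.18.

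Of the 12 loci without a stated role, 11 had a lower mean in psag and 0 passed. AT2G27290 was the brightest of all 41 in WT and had 18.5 to 56.9 with a median of 45.4 in psag, against 71.2 to 89.5 with a median of 75.7 in WT. Every psag array was below every WT array in the deposited intensities. After normalization and averaging the measurements overlapped, and the difference of -0.79 ± 0.25 (SE), with a 1.73-fold higher level in WT, did not pass (limma, adjusted p = 0.274). It was -0.58 without psag replicates 7 and 8, which were the lowest psag arrays at 18.5 and 20.7. AT5G06010 had 1.38 to 2.46 in psag and 2.32 to 3.21 in WT, and its difference of -0.40 ± 0.12 (SE) was nearly the same without that pair, at -0.39 (limma, adjusted p = 0.253 and adjusted p = 0.231).

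AT1G16080 had 5.93 to 6.92 in psag replicates 1 to 6 and 0.508 and 0.470 in replicates 7 and 8, against 6.12 to 7.15 in WT. The first 6 psag arrays thus overlapped the WT range, and the difference of -0.82 was -0.04 without the pair. AT2G46220 had 6.75 to 15.8 in psag replicates 1 to 6 and 1.26 and 1.13 in replicates 7 and 8, against 6.63 to 14.0 in WT, with a difference of -0.66 that was 0.05 without the pair. AT5G50350 had 1.86 to 8.27 with a median of 5.57 in psag, against 3.69 to 11.1 with a median of 6.76 in WT. It was highest in replicates 1 and 2 of both genotypes, and its difference was -0.43.

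The other loci of this group had differences between -0.50 and 0.19. AT3G52070 was the higher one at 0.19, and AT1G73120 was at -0.50, AT2G36480 at -0.47, AT4G17650 at -0.39, AT1G07970 at -0.36, AT2G46300 at -0.28 and AT5G11010 at -0.14. AT5G11010 had 2.64 and 2.69 in psag replicates 7 and 8, and 1.27 to 1.99 in psag replicates 1 to 6, against 1.69 to 2.47 in WT. For that locus the pair was high where it was low for most others.

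The pattern of psag replicates 7 and 8 was uneven across the 41. Their mean was below 0.5 of the mean of psag replicates 1 to 6 for 23 members, where 47.5% of all 223 probes with a WT mean of 2 or more were. It was below 0.25 for 8 members, where the share of these probes was 24.2%. For 13 members it lay between 0.5 and 1 and for 5 it was at or above the other psag arrays. The 8 low members were AT4G17070, AT1G16080, AT2G46220, AT4G32060, AT4G19900, AT4G18180, CUTA and AT1G01080, with ratios from 0.0734 to 0.184. The 5 at or above were AT3G06570, AT5G11010, CCL, AT1G12800 and AT3G09080. No WT pair stood apart in this way: the median ratio of a WT pair to the other WT arrays was 0.943 to 1.06, and 0 to 2 members were below 0.5 in it.

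**Figure D4:**
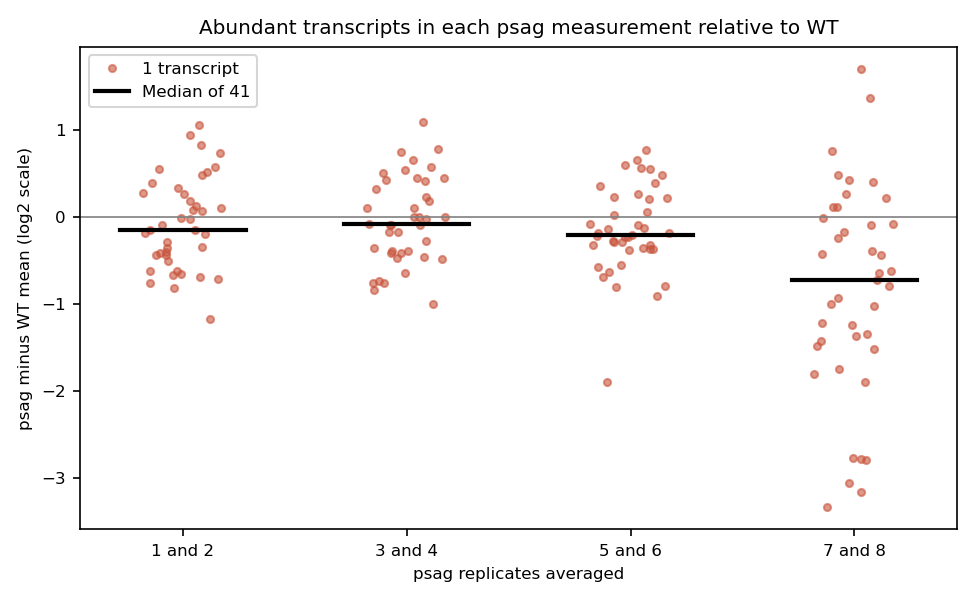
Level of each of the 41 transcripts in each psag measurement minus the WT mean, on the log2 scale, with the median as a black line. The medians were -0.16, -0.08, -0.21 and -0.73 for psag replicates 1 and 2, 3 and 4, 5 and 6, and 7 and 8.

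Taken 1 measurement at a time, the members' median relative to the WT mean was -0.16 in psag replicates 1 and 2, -0.08 in 3 and 4, -0.21 in 5 and 6 and -0.73 in 7 and 8. The number of members below the WT mean was 24, 24, 27 and 31 of 41. The median of all probes was within 0.03 of 0 in each, which quantile normalization largely fixes in advance. The order of the members was similar in both genotypes, with Spearman's rho of 0.92 between psag and WT means over the 41 genes, which share the same arrays.

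The members just inside the minimum were AT3G09080, AT5G11010 and AT3G17550, with WT means of 2.05, 2.12 and 2.13. The single-gene probes just outside were AT4G39690, AT5G10920 and AT3G44020, with WT means of 1.99, 1.99 and 1.95. The differences of these 3 were 0.33, 0.13 and 0.12. AT4G39690 had 4.40 and 4.21 in psag replicates 7 and 8 and 1.63 to 2.29 in psag replicates 1 to 6, against 1.57 to 2.32 in WT. AT5G10920 had 1.34 to 3.11 with a median of 1.74 in psag, against 0.6996 to 3.90 with a median of 1.71 in WT. AT3G44020 had 1.85 to 2.94 with a median of 1.96 in psag, against 1.64 to 2.12 with a median of 1.99 in WT. The ranges of both loci overlapped between the genotypes. Gene length, which the choice of members did not use, had a median of 2090 bases for the 41 and 2153 bases for other single-gene probes, and Spearman's rho between length and WT mean over the 41 genes was -0.13. The 41 genes lay on all 5 chromosomes, with 10, 8, 8, 10 and 5 on chromosomes 1 to 5.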

How the data were processed

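The authors deposited 1 intensity per probe and array, linear and with a maximum near 100. The unit was inferred from the values, since scanning, background correction and scaling are not described in the labels. Sums per array ran from 2314 to 3460. Genes came from GEO's annotation of the platform. Symbols were taken from RefSeq (assembly TAIR10.1) by gene identifier for 690 of 692 single-gene probes. The probes' own build is not stated, so positions are left out. For the 1 locus with 2 probes the brighter was kept.

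Intensities were taken as log2(intensity + 0.0407), the pseudocount being the 5th percentile of positive values, quantile normalized, and averaged over neighbouring replicates, a step founded on their resemblance and not on the labels. A fold on this scale understates the change of dim probes. Limma 3.58.1 in R 4.3.3 (lmFit, eBayes) compared 4 with 4 measurements, with Benjamini-Hochberg adjustment. The fit was also run on simulated data with independent noise and no outlying pair, which does not cover the deviating psag pair of these data. Detection above background was not analysed here. The number of arrays limits the precision.

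The members and lists were chosen with earlier results of these data known. All members are named. Array values are given for the 12 brightest, those past the threshold, the 8 lowest and 8 highest differences and those beside the minimum, and for some others chosen after their values were seen. Function keywords were to be matched to gene descriptions, but 9.76% of members had a written-out name, so that check is void. Protein and promoter features were not analysed here. Alternatives covered the pseudocount, normalization, filters, variance model, treatment of neighbours, replicate blocks, arrays left out and the choice of members.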

Additional observations from a re-analysis of the deposited data

Results flagged for a closer look

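Among the members whose values were recomputed for each setting, 46 groups of 4 measurements were examined for a measurement far from the other 3. Of these, 7 held one, where chance gives about 1 in 20 for independent groups. The groups of a genotype share the same arrays and are not independent, so that rate is no test here. In all 7 it was psag replicates 7 and 8. The gap, as a share of the group's range, was 0.970 for AT1G16080, at -0.47 on the log2 scale where the other psag measurements were 2.59 to 2.68. It was 0.922 for AT4G17070, at 2.34 where the others were 5.76 to 6.05, and 0.898 for AT4G19900, at 0.08 where the others were 2.69 to 2.98. AT3G06570 also had 0.898, but there the pair was high, at 3.19 where the others were 1.58 to 1.75. The share was 0.871 for AT4G18180, 0.863 for AT4G32060 and 0.851 for AT4G31530, in each of which the pair was low. Many of these genes were named for a large difference, which favours such a pair, so the number of groups is a description. The pair had the lowest sums of all arrays, and its part in each difference is shown by the values without it.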

How the results depend on the processing

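The 1 member past the threshold was AT1G06730, and its difference stayed negative under each of the 35 settings tried. The count of members passing was 0 with median centring, without the dimmest 25% of probes, without probes listed at 0 on all arrays and with limma-trend. It was 12 (4 higher, 8 lower) with 16 separate arrays and 5 (2 and 3) with neighbours as a random block. Over all probes the count of 11 was then 0, 3, 2, 4, 330 and 113. Without normalization AT3G09080 passed in place of AT1G06730 (limma, adjusted p = 0.0196). Leaving out 1 array or 1 pair gave 0 to 3 members and 0 to 85 probes. The member count was 3 without psag replicates 7 and 8. It was 0 when any 1 of these was left out: psag replicate 7, psag replicate 8, WT replicate 1, WT replicate 4, the psag pairs 1 and 2 or 5 and 6, or any WT pair. The probe count was 3 with psag replicate 7 left out, 5 for WT replicates 1 and 4, and 7 for WT replicate 8. The replicate numbers did not meet the limit for pairing samples, so the main fit was unpaired, but they were not unrelated across genotypes. Deviations of arrays of one number correlated at 0.0514 to 0.206 across genotypes, and 6 of 8 arrays in each genotype were closest to their own number. What arrays of one number shared is missing from the labels. With averaged pairs as a replicate block 0 members and 1 probe passed (AT1G06730 at an adjusted p of 0.262, limma), and with 16 arrays and the number as a block 8 members (3 higher, 5 lower) and 287 probes passed. The cause of these changes was not tested, except that fewer measurements or probes enter some fits. A minimum of 3 took 25 members. The median difference of members was -0.049 when they were chosen by the psag mean, and under the other settings it moved by less than 0.30, the SD over psag measurements. Under another scaling the sign differed for 2 members, AT4G31530 and NdhS. With no member below 0.238 on any array, no member intensity here is a listed 0. The adjusted p-values do depend on other probes listed at 0 on all arrays. Without those probes AT1G06730 did not pass (limma, adjusted p = 0.145).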
